A study of Mus musculus with 6 samples.

Results

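Transforming growth factor beta (TGF-beta) genes were followed in mouse ovarian tumours that had been treated with carboplatin and then with either the CSF1R inhibitor AZD7507 or vehicle. The set was named by symbol as 10 genes, of which 10 had a row among the 16344 genes of the table. They are the ligand genes Tgfb1, Tgfb2 and Tgfb3, the latent binding protein genes Ltbp1, Ltbp2 and Ltbp3, the receptor genes Tgfbr1, Tgfbr2 and Tgfbr3, and the target gene Tgfbi. Every tumour grew from 1 mouse cell line, 60577, placed in the abdominal cavity of syngeneic mice and left to establish for 21 days. Per the labels' protocols all animals received 3 weekly cycles of carboplatin. The AZD7507 group was then given the drug by mouth every day for 84 days, and the other group is labelled vehicle, with no schedule of its own. Tumours were taken at the humane endpoint. The labels give no day of collection, age or host strain, so drug and time of collection cannot be told apart. Each group held 3 libraries of whole tumour RNA depleted of ribosomal RNA. The labels do not say whether each tumour came from its own animal, and p-values then cover only the spread among these libraries.

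TGF-beta is secreted in an inactive form, wrapped in its own propeptide and tied by latent TGF-beta binding proteins to the fibrillin and fibronectin of the matrix. Integrins, thrombospondin and proteases release it, after which it binds the type II receptor, which activates the type I receptor and, through it, the SMAD transcription factors. In tumours it is known for driving matrix production by fibroblasts and for restraining immune cells, and macrophages, which depend on CSF1R, are one of its sources.

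Values are log2 RPKM, a read density per gene length on a log2 scale, so that 1 unit is a doubling and levels can be compared between genes. Sequencing depth is not known for any library. Bulk RNA cannot tell fewer cells of a type from less RNA per cell. Csf1r was at 4.85, 5.47 and 4.59 in the vehicle libraries and at 2.57, 2.78 and 1.71 with AZD7507, with a limma adjusted p of 0.035. All 14 macrophage markers had a negative difference, with a median of -1.90. Of these, 6 passed as lower at a limma adjusted p under 0.05, Csf1r among them, against 0.337% of all genes. At an unadjusted p under 0.05, 12 were lower, against 5.49% of all genes. With Vehicle 1, Vehicle 2 or Vehicle 3 left out, 0 genes of the table passed as lower, so these calls were lost. Wt1, of serous and mesothelial cells, lay between 6.13 and 6.72, whereas Pax8, a defining gene of serous carcinoma, lay between -3.89 and -2.09. Genes of pancreatic acinar cells stood at a mean log2 RPKM of 9.04 in Vehicle 2 and 9.19 in AZD7507 2, against -3.58 to -0.28 in the other libraries.

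No ligand, receptor, binding protein gene or target of the set passed the test between AZD7507 and vehicle. The number called was 0 of 10 (limma, Benjamini-Hochberg adjusted p under 0.05 over all genes), against 0.355% of all genes, of which 0.337% were lower with AZD7507 and 0.0184% higher. Adjusted p ran from 0.492 for Ltbp1 to 0.994 for Ltbp3. At an unadjusted p under 0.05 there was 1 member, Ltbp1, or 10% of them, against 8.8% of all genes. The groups did not overlap for 2 members, Ltbp1 (higher with AZD7507) and Tgfbr2 (lower), against 15.4% of all genes (7.34% higher and 8.02% lower). Of the members 6 had a negative and 4 a positive difference, and their median difference was -0.09, against 0.025 over all genes. For 7 of the 10 the 95% interval of the difference stayed within 2-fold in either direction. The exceptions were Ltbp1, Ltbp2 and Tgfbi.

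Ltbp1 and Tgfbr2, the members whose groups did not overlap, are shown by the bases before their start sites. Ltbp1 has 2 start sites in the RefSeq table, and a value per gene does not separate their transcripts. The windows are 250 bases upstream of the start in build GRCm38.p6, 5′ to 3′ on the gene's strand. Those of Ltbp1 are chr17:75005279-75005528 and chr17:75178531-75178780, both on the plus strand, and that of Tgfbr2 is chr9:116175364-116175613 on the minus strand. Capitals mark CAGAC or its reverse complement GTCTG, the short element that SMAD proteins bind.
Ltbp1, upstream start: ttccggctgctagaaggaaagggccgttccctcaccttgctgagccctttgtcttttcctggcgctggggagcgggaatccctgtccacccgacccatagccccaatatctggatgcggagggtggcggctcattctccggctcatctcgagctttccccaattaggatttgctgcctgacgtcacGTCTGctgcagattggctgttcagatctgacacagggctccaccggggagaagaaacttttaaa
Ltbp1, downstream start: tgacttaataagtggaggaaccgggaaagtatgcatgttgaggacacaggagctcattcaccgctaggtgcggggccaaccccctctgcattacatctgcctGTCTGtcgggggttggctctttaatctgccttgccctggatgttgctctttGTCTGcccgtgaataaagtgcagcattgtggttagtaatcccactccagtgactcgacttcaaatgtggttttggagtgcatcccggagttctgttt
Tgfbr2: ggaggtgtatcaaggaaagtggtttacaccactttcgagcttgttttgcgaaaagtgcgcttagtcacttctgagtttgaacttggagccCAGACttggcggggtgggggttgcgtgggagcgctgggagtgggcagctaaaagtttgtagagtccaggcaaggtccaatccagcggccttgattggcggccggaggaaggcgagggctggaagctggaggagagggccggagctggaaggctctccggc
The SMAD element occurred 1 time before the upstream Ltbp1 start, 2 times before the downstream start and 1 time before Tgfbr2. It is short, and 42.2% of the 32851 promoter windows of this length hold it on either strand. The AP-1 site TGACTCA (or TGAGTCA), held by 4.46% of windows, and the GC box GGGCGG (or CCGCCC), held by 32.7%, had no match in these windows. A match of letters is a description of the window and not a measured binding site. Promoter entries were found for 8 of the 10 members. Among the members not shown, the SMAD element occurred 2 times each before Tgfb2, Ltbp2 and Tgfbi. It occurred 1 time before Ltbp3 and 1 time before the downstream Tgfbr1 start. Tgfb1 and the upstream Tgfbr1 start had 0, so the element is not particular to Ltbp1 and Tgfbr2.

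Among the ligands Tgfb3 was the most abundant in each of the 6 tumours. Tgfb3 was at 4.69, 4.80 and 4.68 with vehicle and at 4.65, 4.94 and 4.86 with AZD7507 (log2 RPKM, chromosome 12, 86056745 to 86079041, minus strand of GRCm38). These values span only 0.29 across the libraries, and the groups overlap. The difference was 0.09 (SE 0.12, 95% interval -0.18 to 0.37, limma adjusted p 0.872), so the interval reaches from 1.13-fold lower to 1.29-fold higher. It was 0.18 without AZD7507 1 and 0.03 without AZD7507 2.

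Tgfb1, the isoform known as the main product of immune cells and platelets, lies on the plus strand of chromosome 7 at 25687002 to 25705077. It was at 3.87, 4.12 and 4.0 with vehicle and at 4.01, 3.90 and 3.59 with AZD7507. The groups overlap, and AZD7507 3 was the lowest library. Its difference was -0.17 (SE 0.14, 95% interval -0.49 to 0.16, limma adjusted p 0.81), with a lower bound of 1.41-fold lower. It was -0.04 without AZD7507 3, -0.10 without Vehicle 2 and -0.25 without AZD7507 1. In the same libraries the summed RPKM of the 14 macrophage markers ran from 434.8 to 705.1 with vehicle and from 90.2 to 215.6 with AZD7507, and none of these markers was under 1 RPKM in every library. The part of macrophages in the Tgfb1 values was not tested. Of the platelet markers only Pf4 and Itga2b had a row, with a summed RPKM of 4.30 to 6.44 and 3.19 to 4.35. Their differences had opposite signs, -1.46 for Pf4 (limma adjusted p 0.409) and 0.23 for Itga2b (limma adjusted p 0.781). The groups overlap for both.

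Tgfb2 is the isoform that needs the co-receptor betaglycan for efficient binding (chromosome 1, 186622792 to 186705989, minus strand). With vehicle it was at 3.51, 3.63 and 3.84 and with AZD7507 at 4.05, 3.46 and 4.10. AZD7507 1 and AZD7507 3 lay above every vehicle library, and AZD7507 2 lay below all of them. The difference was 0.20 (SE 0.19, 95% interval -0.24 to 0.65, limma adjusted p 0.829). It was 0.41 without AZD7507 2 and 0.39 when Vehicle 2 was left out as well, against 0.09 without AZD7507 3, 0.12 without AZD7507 1 and 0.13 without Vehicle 1. It passed in none of these fits (limma adjusted p from 0.249 to 0.993). Of all genes 0 passed as higher in any fit without 1 library, and 1 passed without both acinar-rich libraries. The fits therefore say little about Tgfb2 itself.

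**Figure D1:**
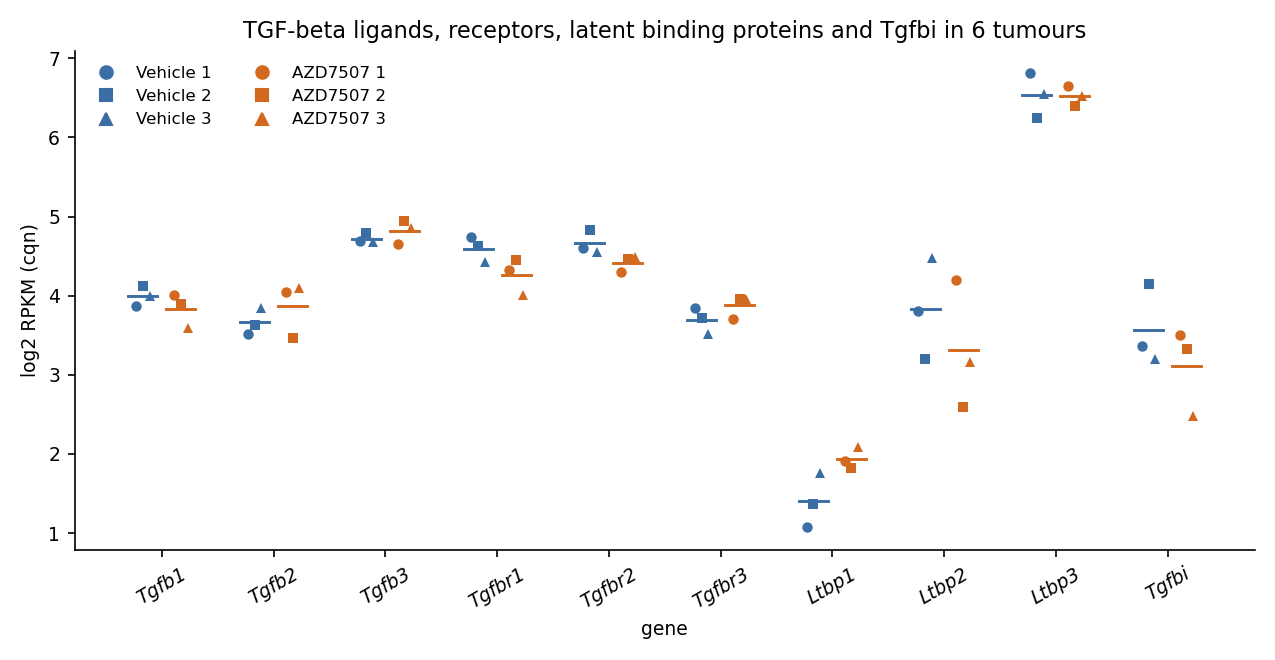
Log2 RPKM (y axis) of each of the 10 genes (x axis) in the 3 vehicle libraries (blue) and the 3 AZD7507 libraries (orange), with a marker shape for each replicate and a line at each group's mean. Ltbp3 is the highest gene and Ltbp1 the lowest, and Ltbp2 and Tgfbi spread the most between tumours.

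The balance between the ligand genes was given as each gene's share of their summed RPKM. Tgfb3 made up 47.9 ± 2.10% with vehicle and 49.2 ± 5.40% with AZD7507 (mean ± SD, n = 3 each). Tgfb1 made up 29.0 ± 1.07% and 24.9 ± 3.79%, and Tgfb2 23.1 ± 2.26% and 25.9 ± 5.58%. The shares varied more between the AZD7507 tumours than between the vehicle tumours, and Tgfb1 was lowest in AZD7507 3, at 20.7%. The summed ligand RPKM was 55.1 ± 2.96 with vehicle and 57.5 ± 0.749 with AZD7507.

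Log ratios within a library, which library scaling cannot move, were compared over 8 pairs of members with a 2-sided exact permutation test. With 3 against 3 libraries its smallest possible p is 0.1, so no pair could pass. The Tgfb1 to Tgfb2 log2 ratio was 0.33 ± 0.17 with vehicle and -0.04 ± 0.48 with AZD7507 (difference -0.37, exact p 0.3). In AZD7507 3 it was -0.51, where Tgfb2 exceeded Tgfb1 the most, and the difference was -0.13 without that library and -0.61 without AZD7507 2. The Tgfb1 to Tgfb3 ratio differed by -0.26 (exact p 0.4), by -0.12 without AZD7507 3 and by -0.43 without AZD7507 1. The Tgfb2 to Tgfb3 ratio differed by 0.11 (exact p 0.8) and changed sign without AZD7507 1, to -0.0623. After Benjamini-Hochberg adjustment over the 8 pairs these exact p were 0.64, 0.64 and 0.8.

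**Figure D2:**
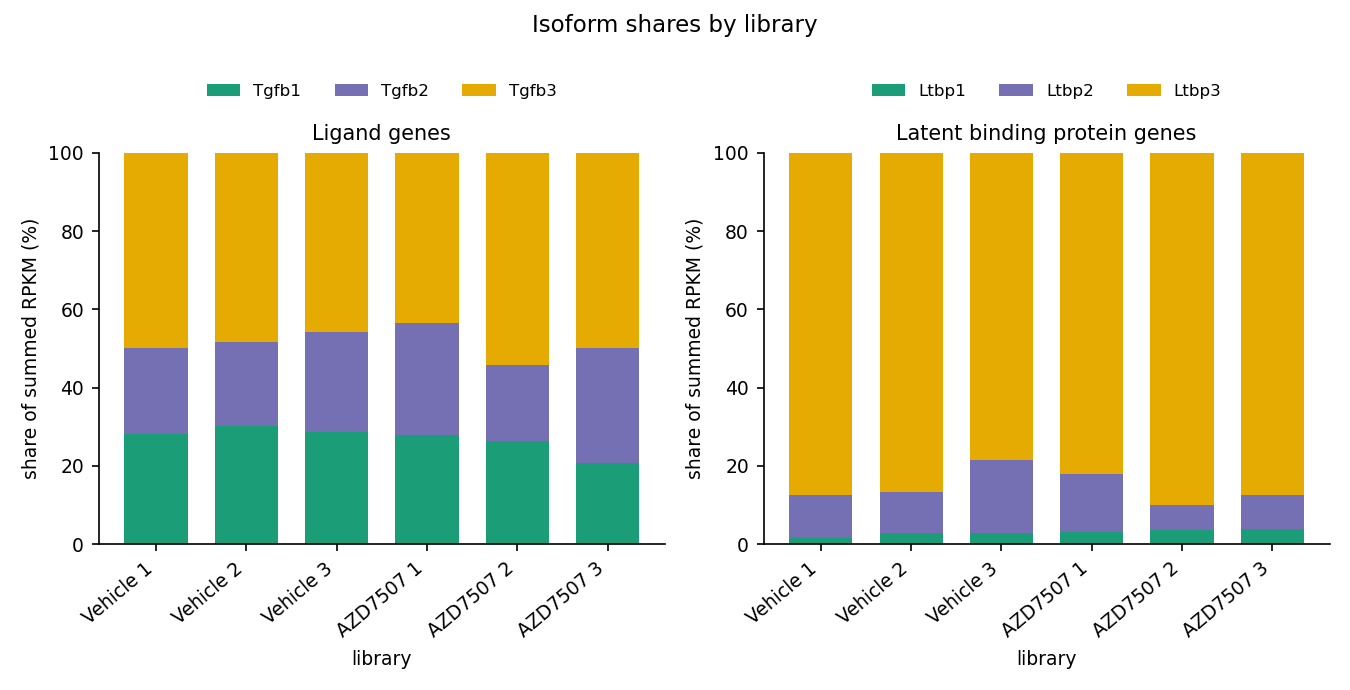
Share of summed RPKM (y axis, percent) of the ligand genes (left) and the latent binding protein genes (right) in each library (x axis). Tgfb3 takes 43.5% to 54.3% of the ligand sum and Ltbp3 takes 78.5% to 89.8% of the sum of Ltbp1, Ltbp2 and Ltbp3.

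Ltbp3 dominated the latent binding protein genes of the set. Its product binds latent TGF-beta in the matrix, and its values were 6.81, 6.25 and 6.55 with vehicle and 6.66, 6.40 and 6.53 with AZD7507 (chromosome 19, 5740904 to 5758532, plus strand). It stood at the 98.4th percentile of all genes by mean level and made up 84.2 ± 4.97% of the summed RPKM of Ltbp1, Ltbp2 and Ltbp3 with vehicle and 86.4 ± 3.99% with AZD7507. Ltbp4 is not in the set or in these shares, and was at 2.93 ± 0.52 with vehicle and 2.91 ± 0.11 with AZD7507. Its mean level over all libraries was 2.92, against 1.67 for Ltbp1 and 6.53 for Ltbp3. The Ltbp3 difference was -0.01 (SE 0.17, 95% interval -0.40 to 0.38, limma adjusted p 0.994), and its sign varied with the library left out, from -0.15 without Vehicle 2 to 0.13 without Vehicle 1. Tgfb2 (124 of 5791 bases), Tgfb3 (at most 257 of 3383 with 1 gene), Ltbp2 (764 of 8184) and Tgfbr3 (297 of 6545) share exonic bases with gene models not annotated as protein coding. The model that overlaps Tgfbr3 lies on the strand of Tgfbr3, so no strand setting could separate their reads. For Tgfb2, Tgfb3 and Ltbp2 the models lie on the opposite strand. The strand setting of the counting is not given in the sources used here, so reads from these stretches cannot be told apart.

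Ltbp1, the other classical binder of latent TGF-beta, was the least abundant member and the one with the largest positive difference. It lies on the plus strand of chromosome 17 at 75005568 to 75392512 and was at 1.08, 1.37 and 1.76 with vehicle and at 1.91, 1.82 and 2.09 with AZD7507. The groups do not overlap, by a gap between Vehicle 3 and AZD7507 2. The difference was 0.54 (SE 0.20, 95% interval 0.07 to 1.0), or 1.45-fold higher, with an unadjusted p of 0.029 and a limma adjusted p of 0.492. It ran from 0.37 without Vehicle 1 to 0.72 without Vehicle 3 when 1 library was left out. It was 0.58 without both libraries rich in acinar transcripts. Ltbp1 passed in none of these fits (limma adjusted p from 0.317 to 0.991). Of all genes 0 passed as higher in any fit without 1 library, and 1 passed without both acinar-rich libraries. These fits therefore say little about Ltbp1 itself. Against Ltbp3 the log2 ratio of Ltbp1 was -5.13 ± 0.52 with vehicle and -4.59 ± 0.16 with AZD7507, again without overlap, at the smallest exact p of 0.1 (0.64 adjusted over the 8 pairs). That difference of 0.54 was 0.24 without Vehicle 1. Its share of the binding protein sum was 2.48 ± 0.721% and 3.61 ± 0.507%. Epithelial markers had a positive difference in 7 of 7 measured genes, with a summed RPKM of 320.9 to 497.5 with vehicle and 457.5 to 560.9 with AZD7507. Serous and mesothelial markers did so in 7 of 7, with 362.7 to 631.7 and 519.2 to 785.6. Over all 16344 genes the difference was positive for 8909 and negative for 7435. Fibroblast markers had a negative difference in 8 of 8, with a median of -0.28, and 0 passed (limma). Their summed RPKM was 53.9 to 107.3 with vehicle and 50.6 to 71.9 with AZD7507. The part of these cell types in the Ltbp1 values was not tested.

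Ltbp2, whose product sits on fibrillin microfibrils and is not known as a carrier of latent TGF-beta, varied most between tumours (chromosome 12, 84783212 to 84876532, minus strand). It was at 3.80, 3.20 and 4.48 with vehicle and at 4.19, 2.59 and 3.17 with AZD7507. The lowest library of the vehicle group was Vehicle 2 and that of the AZD7507 group AZD7507 2, the libraries rich in acinar transcripts, and Ltbp3 was lowest in the same libraries of each group. Whether the acinar RNA has a part in this was not tested. The Ltbp2 difference of -0.51 (SE 0.45, 95% interval -1.57 to 0.54, limma adjusted p 0.822) was smaller than the spread within either group, with SDs of 0.64 and 0.81. It was -0.15 without AZD7507 2 and -0.18 without Vehicle 3, against -0.95 without AZD7507 1 and -0.82 without Vehicle 2. Leaving out both acinar-rich libraries gave -0.46. The Ltbp1 to Ltbp2 log2 ratio was -2.43 ± 0.51 with vehicle and -1.38 ± 0.80 with AZD7507 (difference 1.05, exact p 0.2, 0.64 adjusted), and the groups overlap.

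The signalling receptor genes were both lower on average with AZD7507, and neither passed. Tgfbr1 encodes the type I receptor kinase (chromosome 4, 47353222 to 47414931, plus strand) and was at 4.74, 4.62 and 4.42 with vehicle and at 4.33, 4.45 and 4.01 with AZD7507. The groups overlap only through Vehicle 3 and AZD7507 2. Its difference was -0.33 (SE 0.15, 95% interval -0.68 to 0.02, limma adjusted p 0.59), or 1.26-fold lower, and -0.20 without AZD7507 3.

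Tgfbr2 encodes the type II receptor, which binds the ligand first (chromosome 9, 116084293 to 116175360, minus strand). It was at 4.61, 4.83 and 4.55 with vehicle and at 4.30, 4.46 and 4.49 with AZD7507. Every AZD7507 library lay below every vehicle library, though by only a small gap between AZD7507 3 and Vehicle 3. The difference was -0.25 (SE 0.12, 95% interval -0.53 to 0.03, limma adjusted p 0.617), or 1.19-fold lower, and -0.16 without Vehicle 2. The Tgfbr1 to Tgfbr2 log2 ratio was -0.07 ± 0.18 and -0.15 ± 0.28 (exact p 0.8, also after adjustment), and the sign of the difference changed without AZD7507 3 or Vehicle 1.

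Tgfbr3, the gene of betaglycan, which presents ligand to the signalling receptors, had a difference of the other sign (chromosome 5, 107106570 to 107289629, minus strand). It was at 3.85, 3.72 and 3.52 with vehicle and at 3.71, 3.96 and 3.96 with AZD7507. AZD7507 1 lay within the vehicle range, so the groups overlap. The difference was 0.18 (SE 0.13, 95% interval -0.12 to 0.48, limma adjusted p 0.769), and 0.09 without Vehicle 3.

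**Figure D3:**
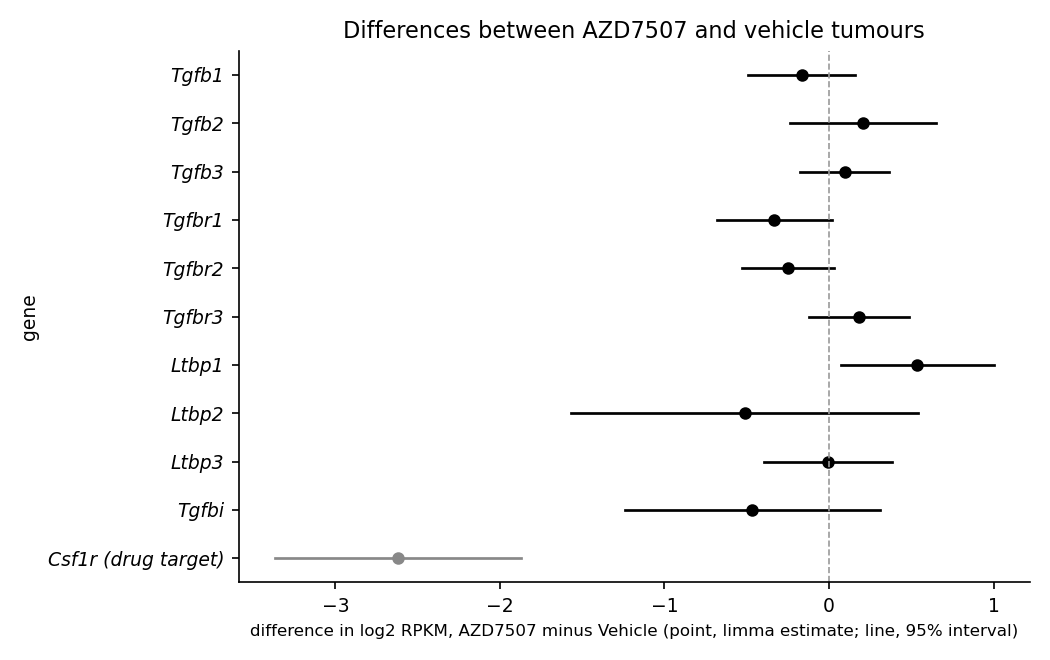
Difference in log2 RPKM, AZD7507 minus vehicle (x axis), for each of the 10 genes and for the drug target Csf1r (y axis), with the limma estimate as a point and its 95% interval as a line. All intervals of the 10 genes except that of Ltbp1 cross 0, and that of Csf1r runs from -3.37 to -1.87.

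Tgfbi, a matrix protein gene named for its induction by TGF-beta and also made by macrophages, was lower on average with AZD7507 but spread widely (chromosome 13, 56609523 to 56639562, plus strand). It was at 3.36, 4.15 and 3.20 with vehicle and at 3.51, 3.33 and 2.48 with AZD7507. Vehicle 2 was far above the rest and AZD7507 3 far below, while the other 4 libraries lay between 3.20 and 3.51 whatever the group. The difference was -0.47 (SE 0.33, 95% interval -1.24 to 0.31, limma adjusted p 0.768). It was -0.18 without Vehicle 2, -0.15 without AZD7507 3 and -0.21 with array weights. Leaving out both acinar-rich libraries gave -0.29. Vehicle 2 and AZD7507 3 also held the highest and the lowest summed RPKM of macrophage markers, 705.1 and 90.2. Vehicle 2 further held the highest sums of osteoclast markers, at 145.0 against 17.5 to 21.2 elsewhere, and of fibroblast markers, at 107.3 against 50.6 to 76.9. The part of these cells in the Tgfbi values was not tested. Per unit of Tgfb1, the Tgfbi log2 ratio was -0.42 ± 0.42 with vehicle and -0.72 ± 0.33 with AZD7507 (difference -0.30, exact p 0.5, 0.667 adjusted), and the difference was -0.07 without Vehicle 2, -0.11 without AZD7507 3 and -0.49 without Vehicle 3.

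The profiles most like those of the variable members were sought among 11534 genes with a mean log2 RPKM of at least 0, by the root mean square difference over the 6 libraries after centring each gene on its own mean. The rule took members with an SD of at least 0.5, which were Ltbp2 and Tgfbi. Nearest to Tgfbi were Ctsc, a lysosomal protease gene, at 0.15, Fbln5, an elastic fibre gene, at 0.15 and Zbtb16, a transcription factor gene, at 0.16. Ctsc was at 4.96, 5.63 and 4.87 with vehicle and at 4.71, 4.89 and 3.96 with AZD7507, so it too was highest in Vehicle 2 and lowest in AZD7507 3. Nearest to Ltbp2 were Fbxo32, a ubiquitin ligase gene, at 0.15, Plxnb3, a semaphorin receptor gene, at 0.19 and Jchain, an immunoglobulin joining chain gene, at 0.22. None of these 6 genes passed between the groups (limma adjusted p from 0.602 to 0.882). The likeness rests on 6 libraries that include both groups and is a description.

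**Figure D4:**
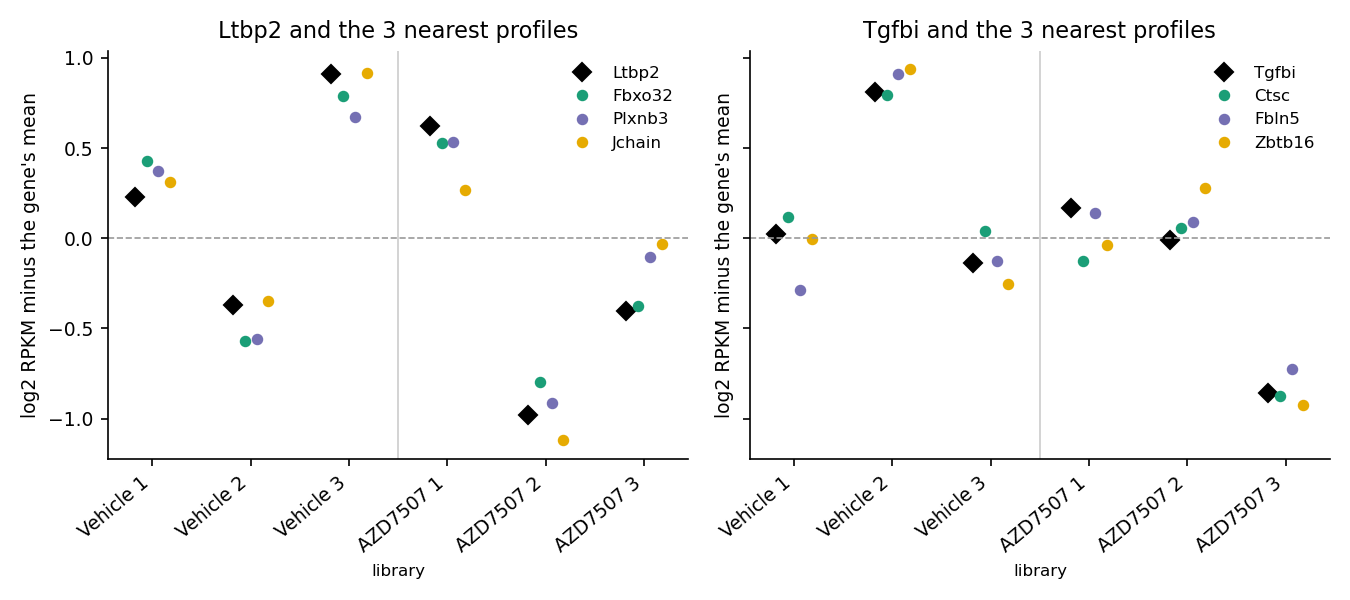
Log2 RPKM minus each gene's own mean (y axis) in the 6 libraries (x axis) for Ltbp2 (left) and Tgfbi (right), as black diamonds, and for the 3 genes with the nearest profile, as coloured circles. Tgfbi and its neighbours are highest in Vehicle 2 and lowest in AZD7507 3, and Ltbp2 and its neighbours are lowest in AZD7507 2.

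Since RPKM is per length, the levels of the members can be set in order by their mean log2 RPKM over the 6 libraries. Ltbp3 led at 6.53, above Tgfb3 at 4.77 in 6 of 6 libraries (mean gap 1.76 ± 0.28). Tgfb3, Tgfbr2 (4.54) and Tgfbr1 (4.43) followed closely, and the order held in 5 of 6 libraries for the first step and in 4 of 6 for the second, so these neighbours do not differ beyond their spread at the second step. Tgfbr1 exceeded Tgfb1 (3.91) in 6 of 6. After Tgfb1 came Tgfbr3 (3.79), Tgfb2 (3.77), Ltbp2 (3.57) and Tgfbi (3.34). Neighbours among these genes could not be ordered, since each step held in only 3 or 4 of 6 libraries and each gap was smaller than its SD. The steps do not cover genes further apart. Tgfbi exceeded Tgfb1 only in Vehicle 2, by 0.03, and its log2 ratio to Tgfb1 lay between -1.10 and -0.50 elsewhere. Ltbp1 closed the order at 1.67, below Tgfbi in 6 of 6 libraries and at the 37.6th percentile of all genes.

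Other genes of the pathway were described in 5 lists with 117 distinct genes, of which 108 had a row. None of the 108 passed in either direction (limma). Without adjustment, 6 had a p under 0.05 with a lower and 2 with a higher level, or 5.56% and 1.85%, against 5.49% and 3.31% of all genes. The groups did not overlap for 8 lower and 3 higher genes, or 7.41% and 2.78%, against 8.02% and 7.34% of all genes. Their median difference was -0.03. The medians of the receptor, SMAD, target and other ligand lists changed sign with the library left out.

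Genes of latency and activation had a median of -0.19, with 20 of 25 measured genes below 0 and 0 past the threshold. Of all 16344 genes 7435 were below 0. The median was -0.07 without Vehicle 2, -0.08 without both acinar-rich libraries, -0.12 with array weights and -0.39 without Vehicle 1. Nrros, which tethers latent TGF-beta on myeloid cells, was at 1.71, 2.59 and 1.94 with vehicle and at 1.07, 0.81 and 0.25 with AZD7507. Its groups do not overlap, and its difference of -1.38 (SE 0.30) gave a limma adjusted p of 0.166. The 14 macrophage markers had a negative difference in 14 of 14, beside which the Nrros values stand, and their part in it was not tested. The integrin subunit gene Itgb5 was at 5.04 ± 0.21 and 4.47 ± 0.20 (difference -0.57, limma adjusted p 0.276), also without overlap. Itgb8, whose product pairs with the alpha v subunit to release active TGF-beta, was at 2.33 ± 0.15 and 2.70 ± 0.22 (difference 0.37, limma adjusted p 0.537), with every AZD7507 library above every vehicle library. At an unadjusted p under 0.05 the list held 2 lower genes and 1 higher gene of 25, against 5.49% and 3.31% of all genes. The groups did not overlap for 3 lower genes and 1 higher gene of the 25, against 8.02% and 7.34% of all genes.

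Receptors and co-receptors had a median of -0.01, with 8 of 14 measured genes below 0. None had groups without overlap, against 15.4% of all genes, and at an unadjusted p under 0.05 there were 0, against 8.8%. Bmpr1b, a BMP type I receptor gene, was at -2.83 ± 1.46 and -1.28 ± 0.46, values that lie under 1 RPKM. The endothelial type I receptor gene Acvrl1 was at 2.0 ± 0.23 and 1.54 ± 0.39 (limma adjusted p 0.619), and Cd109, a gene of a TGF-beta co-receptor, at 0.55 ± 0.92 and -0.14 ± 0.44.

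SMADs and their regulators had a median of -0.03, with 13 of 24 genes below 0. Of the 24, 2 were lower at an unadjusted p under 0.05, against 5.49% of all genes. The ubiquitin ligase gene Wwp1 was at 2.97 ± 0.04 and 2.70 ± 0.09 (difference -0.27, limma adjusted p 0.517), without overlap. Pmepa1, a SMAD-induced inhibitor of the pathway, was at 3.39, 3.83 and 3.40 with vehicle and at 3.47, 2.79 and 2.80 with AZD7507. AZD7507 1 lay within the vehicle range, and the difference was -0.52 (limma adjusted p 0.555). Ski, a corepressor of SMADs, was at 5.02 ± 0.09 and 4.79 ± 0.12 (limma adjusted p 0.609), without overlap.

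Genes known as induced by TGF-beta had a median of -0.0033, with 15 of 29 measured genes below 0 and 14 above. Of the 29, 3 were lower at an unadjusted p under 0.05, against 5.49% of all genes. Zeb2 encodes a transcriptional repressor that drives epithelial to mesenchymal transition, and macrophages also express it. It was at 4.47, 4.96 and 4.63 with vehicle and at 4.29, 4.04 and 3.85 with AZD7507. The groups do not overlap, and the difference of -0.63 (SE 0.17) gave a limma adjusted p of 0.275. Nox4, an oxidase gene, was at 0.82 ± 0.51 and 0.05 ± 0.37 (limma adjusted p 0.55), without overlap, and Pmepa1 is on this list too. As with Nrros, the part of macrophages in the Zeb2 values was not tested.

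Other ligands of the superfamily and their antagonists had a median of 0.05, with 13 of 21 measured genes above 0. The median was 0.30 without Vehicle 2, -0.09 without AZD7507 1 and -0.06 without Vehicle 1. Lefty2, a secreted inhibitor gene, was at -0.59 ± 0.27 and 0.52 ± 0.81 (difference 1.11, unadjusted p 0.029, limma adjusted p 0.492), and its groups overlap. Bmp4, a BMP ligand gene, was at 3.48 ± 0.43 and 3.89 ± 0.25 (difference 0.41, limma adjusted p 0.696), and its groups overlap.

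**Figure D5:**
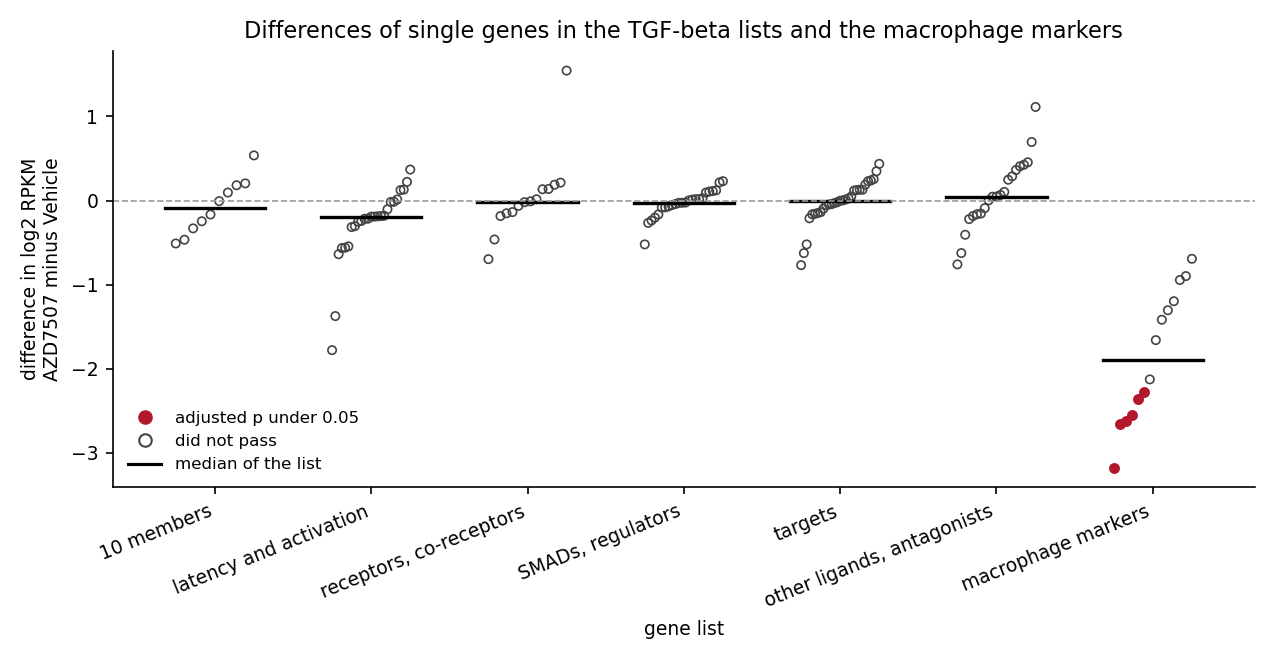
Difference in log2 RPKM, AZD7507 minus vehicle (y axis), of each gene in the 10 members, the 5 pathway lists and the macrophage markers (x axis), with filled points past an adjusted p of 0.05 and a line at each list's median. The filled points are 6 macrophage markers, and the medians of the pathway lists lie between -0.19 and 0.05.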

How the data were processed

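The deposited table holds log2 RPKM. Its name gives cqn as the authors' normalization, a method that corrects read density for length and GC content, and each library median was 2.32. The submitters' processing notes name BWA 0.7.15-r1140, HTSeq, mm10 and GRCm38. The strand setting and any filter on low values are not given in the sources used here. Depth is unknown, so no counting interval is given, and such values show no change in total RNA.

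Symbols were matched for 16306 of 16344 identifiers. Positions are those of GENCODE M21 (GRCm38), and promoters come from RefSeq (GRCm38.p6). Groups were taken from the treatment given in vivo. Replicate numbers follow record order and pair nothing. The deposited log2 values of all genes were fitted with limma 3.58.1 (R 4.3.3), using a trended and robust prior, no pseudocount and no filter, 2-sided, at an adjusted p of 0.05, a procedure tested on simulated data. Exact permutation tests used scipy 1.17.1. Differences are AZD7507 minus vehicle.

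The members, the 5 pathway lists, the 10 marker lists and the choice of acinar-rich libraries (mean acinar log2 RPKM above 5) were made with earlier results of these data known. The genes named are all members, Csf1r, the 3 nearest profiles (leaving out unnamed gene models) and, from each pathway list, up to 6 genes past the threshold or else the 3 with the smallest unadjusted p, of which 1 is not reported here. Ltbp4, single marker genes and the genes under other observations were picked after their values were seen. Results were recomputed with log2(RPKM + 1) and log2(RPKM + 0.1), with quantile normalization or median centring, with array weights, with a prior held constant, for genes with a mean of at least 0, and with libraries left out.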

Additional observations from a re-analysis of the deposited data

How the results depend on the processing

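None of the 10 members, and no gene of the 5 pathway lists, passed under any of the 14 alternatives (limma). The sign of each member's difference held in all 14, except for Ltbp3, which ran from -0.15 to 0.13 when 1 library was left out. Of the log ratios, Tgfb2 to Tgfb3 ran from -0.0623 to 0.38 and Tgfbr1 to Tgfbr2 from -0.17 to 0.0775 over the fits without 1 library, and the other 6 ratios kept their sign. Over all genes, 55 lower and 3 higher calls became 143 and 14 with array weights, and 13 and 1 without both acinar-rich libraries. With a constant variance prior 1 was higher. Without 1 library there were 0 to 14 lower and 0 to 0 higher, with 0 lower when any vehicle library was dropped, and 14, 1 and 2 lower when AZD7507 1, 2 or 3 was dropped. The cause was not tested. The median of the latency list stayed below 0 (-0.39 to -0.07), and those of the other 4 lists crossed 0 when 1 library was left out. No paired analysis was possible because the labels give no replicate numbers or pairs. Groups of 3 and unknown depth limit what differences could pass, and an interval that crosses 0 does not show equal levels.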

Other observations

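Further genes of the pathway lists were chosen after their values were seen. Bmp2, Grem1, Amhr2, Mmp9 and Ccn2 varied between tumours more than between groups, while Fn1 varied little (SD 0.16 over all libraries). Bmp2, a BMP ligand gene, was at 5.74 in Vehicle 2 and 5.24 in AZD7507 2, the libraries rich in acinar transcripts, and between 1.96 and 3.66 in the other 4. Grem1, a BMP antagonist gene of fibroblasts, was at 4.21 in Vehicle 2 and between -0.32 and 1.67 elsewhere. Amhr2, the receptor gene of the anti-Müllerian hormone, lay between 4.37 and 6.79 and was lowest in Vehicle 2, while Amh, the gene of its ligand, had no row here. Mmp9, a protease gene on the latency list, had the most negative difference of that list, at -1.78, with 5.94 in Vehicle 2 and 0.05 to 1.66 in the other libraries. Fn1, the fibronectin gene, was at 8.90 ± 0.08 with vehicle and 8.91 ± 0.24 with AZD7507. Ccn2, a matricellular target gene, was at 6.36 ± 0.97 and 6.31 ± 0.41.

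Levels of the remaining markers are given as the range of the summed RPKM in vehicle and then in AZD7507 libraries. Endothelial markers ran from 36.8 to 49.6 and from 53.7 to 55.9, and smooth muscle and pericyte markers from 18.6 to 27.8 and from 19.2 to 22.04. The endothelial sum was mostly Esam (difference 0.41) and Kdr (0.30), and the groups overlap for both. Pecam1 (0.02) and Cdh5 (0.04) differed little, and Cldn5 had a difference of -0.47. Tek and Emcn were under 1 RPKM in every library. T cell markers ran from 3.98 to 6.41 and from 2.43 to 6.11, and acinar markers from 2.35 to 4904 and from 3.12 to 5409. The T cell sum was mostly Trac, with a difference of 0.03. The other 4 measured T cell genes were under 1 RPKM in every library. Their differences were -1.36 for Cd4, -1.07 for Cd5, -0.72 for Foxp3 and -0.08 for Cd3e, and for Cd4 and Cd5 the groups did not overlap. Of the 58 marker genes outside the macrophage list, 0 passed between the groups (limma). With an unadjusted p under 0.05 there were 5 lower (8.62%, against 5.49% of all genes) and 3 higher (5.17%, against 3.31%).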
